A study of Mus musculus with 53 samples.

Results

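The BCL2 family and survival genes examined here were 10 genes of the mouse: Bcl2, Bcl2l1, Mcl1, Bcl2a1b, Bcl2a1d and Ier3 on the side of survival, and Bcl2l11, Bbc3, Pmaip1 and Bax on the side of cell death. They were taken by gene name from tables of 23847 loci, all 10 were found, and all 10 passed the filter on low values (at least 1 FPKM in at least 1 sample), as did 11146 loci in all. FPKM are read fragments scaled to transcript length and to the mapped fragments of the library, so levels of different genes can be compared per length. The RNA came from bone marrow-derived macrophages (BMDMs) of C57BL/6 mice aged 8 to 12 weeks, which were grown from bone marrow for 6 days with supernatant of L929 cells, a source of the macrophage growth factor M-CSF. WT BMDMs and BMDMs of Stat6-/- mice, which lack the IL-4 signal transducer STAT6 in every cell of the body, received 20 ng/ml of IL-4 for 1, 3, 6 or 24 h or no IL-4 for the same times, and a control was also taken at 0 h. Each of the 53 samples belonged to 1 of 18 groups by genotype, treatment and time. There were 4 samples in each WT group but 3 (replicates 2, 3 and 4) in the WT group of 24 h IL-4, and 2 in each Stat6-/- group. Behind the comparisons lies the question of which genes respond to IL-4 in macrophages and whether the response needs STAT6.

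BCL2 proteins decide whether mitochondria release cytochrome c and start the caspase cascade. The survival members (BCL2, BCL-XL from Bcl2l1, MCL1 and A1 from the Bcl2a1 genes) hold the pore-forming effector BAX and the BH3-only proteins in check, and the BH3-only proteins BIM (Bcl2l11), PUMA (Bbc3) and NOXA (Pmaip1) bind the survival members and set BAX free. IER3 is not a BCL2 protein but an immediate early gene product that can protect cells from death signals. Ier3 is counted here with the survival genes, and its effect on survival was not measured. In macrophages, M-CSF, NF-kB signals and cytokines are known to act on cell survival in part through these genes. MCL1 and NOXA proteins are short-lived. Protein was not measured in these samples, and RNA levels alone do not give protein levels.

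In 53 libraries the FPKM values summed to between 385888.9 and 464914.9, between 10017 and 10380 loci reached 1 FPKM, and the relative sequencing depth inferred from steps in the low values ranged from 0.706 to 1.558, with medians of 1.000 in WT and 1.006 in Stat6-/-. Stat6 itself stood at 58.7 to 90.6 FPKM in WT and at 14.3 to 24.0 FPKM in Stat6-/- samples, so the labels and this gene did not conflict, although RNA of the disrupted gene was still counted. All 6 macrophage markers were present, with sums of 2604 to 4469 FPKM, whereas T cell, erythroid and stromal markers summed to at most 0.462 FPKM, and B cell, mast cell and dendritic cell markers to at most 13.9, 2.82 and 1.25 FPKM. Neutrophil markers (7 genes) summed to 221.0 to 620.0 FPKM in WT and to 583.6 to 1072 FPKM in Stat6-/-. In bulk RNA, fewer cells of a type and less RNA per cell cannot be told apart.

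The 2 Stat6-/- replicates stood apart from each other for several of the 10 genes. Bcl2a1b was higher in replicate 2 in 9 of 9 Stat6-/- groups, by 1.70 to 3.52 times, and Bcl2a1d, Mcl1, Bbc3 and Pmaip1 were also higher in replicate 2 in 9 of 9. Bcl2 and Bcl2l1 were higher in replicate 2 in all 7 groups from 0 to 6 h, by 1.62 to 2.01 and 1.59 to 1.82 times, and lower in replicate 2 in both groups at 24 h. The markers of dividing cells (Mki67 and Top2a) also changed sides: their sum was lower in replicate 2 in 7 of 7 groups up to 6 h and higher in 2 of 2 at 24 h. A Stat6-/- mean of these genes therefore lies between 2 unlike samples, and values from 1 replicate alone are given below for the comparisons of the genotypes in which they turned a call.

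**Figure D1:**
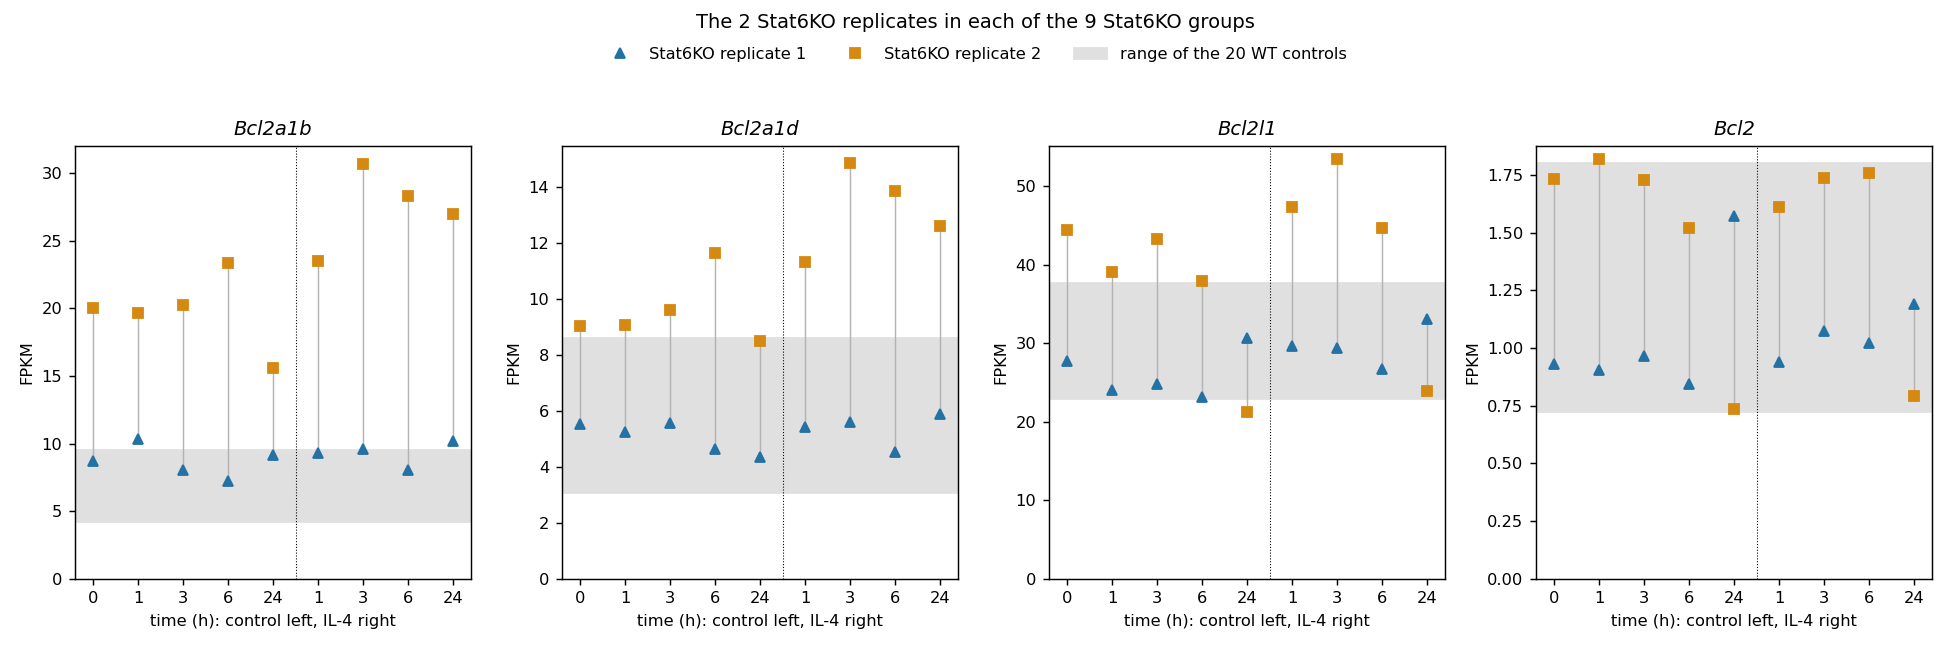
FPKM of Bcl2a1b, Bcl2a1d, Bcl2l1 and Bcl2 (y axes) in each of the 9 Stat6-/- groups (x axes, time in h, controls left and IL-4 right of the dotted line), with triangles for replicate 1, squares for replicate 2 and a grey band for the range of the 20 WT controls. Replicate 2 lies above replicate 1 in every group for Bcl2a1b and Bcl2a1d, whereas the replicates of Bcl2l1 and Bcl2 change sides at 24 h.

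In resting WT BMDMs (0 h, FPKM as mean ± SD, n = 4), Mcl1 had the highest level of the 10, 288.6 ± 21.6, followed by Bax at 143.0 ± 30.7. Bcl2l11 at 31.6 ± 2.91 and Bcl2l1 at 31.4 ± 3.11 came next, and their samples overlapped. Then came Pmaip1 (10.4 ± 1.17), Ier3 (8.67 ± 1.70), Bcl2a1b (7.14 ± 1.30), Bbc3 (5.92 ± 1.02) and Bcl2a1d (4.68 ± 0.853), and each of these 5 overlapped with its neighbour in this order. Bcl2, the gene that gave the family its name, was the lowest at 1.38 ± 0.294 and overlapped with none of the others. Mcl1, Bax, the pair of Bcl2l11 and Bcl2l1, and Bcl2 were thus separated from their neighbours by more than the spread of the 4 samples.

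IL-4 changed 9 of the 10 genes in WT BMDMs at 1 or more times, in both directions among the survival genes and among the BH3-only genes. The share of all loci that changed at 1 or more times is not given here, but it was at least the 55.0% that changed at 24 h. Against time-matched controls, with limma on log2(FPKM + 1) and Benjamini-Hochberg adjustment over all 11146 loci, 5 of the 10 genes passed an adjusted p of 0.05 at 1 h, when 9.39% of all loci did. At 3 h 7 of 10 passed (28.9% of all loci), at 6 h 7 of 10 (41.2%) and at 24 h 8 of 10 (55.0%). With a change of at least 2-fold as a further condition, the test left 2, 3, 4 and 4 genes at the 4 times, where it left 1.49%, 3.88%, 5.54% and 8.50% of all loci. Among them 1, 2, 3 and 3 rose (1.09%, 2.61%, 3.18% and 3.91% of all loci) and 1 fell at each time (0.395%, 1.27%, 2.36% and 4.58%). The median log2 fold change of the 10 genes was 0.09, 0.30, 0.39 and 0.36 at the 4 times, and that of all loci -0.02, 0.01, -0.00 and -0.07.

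Without STAT6 none of the 10 genes passed the test at any time. No locus passed in Stat6-/- at 1, 3, 6 or 24 h (0% each). Among the 40 tests of the 10 genes in Stat6-/-, none had an unadjusted p under 0.05 by limma, the smallest being 0.151, while 51, 131, 88 and 37 of all loci had one at the 4 times. With a replicate block in the fit 2, 4, 4 and 1 loci passed, none of them among the 10. Log2 fold changes in Stat6-/- ran from -0.18 to 0.45. With 2 samples a group the 95% intervals were wide, and the widest were those of Bcl2a1b, which began at -0.97 at 1 h and ended at 1.47 at 24 h. The difference between the WT and the Stat6-/- responses was tested directly as an interaction term, and it passed for 4 genes at 1 h (3.36% of all loci), 4 at 3 h (11.2%), 3 at 6 h (16.5%) and 4 at 24 h (27.0%).

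**Figure D2:**
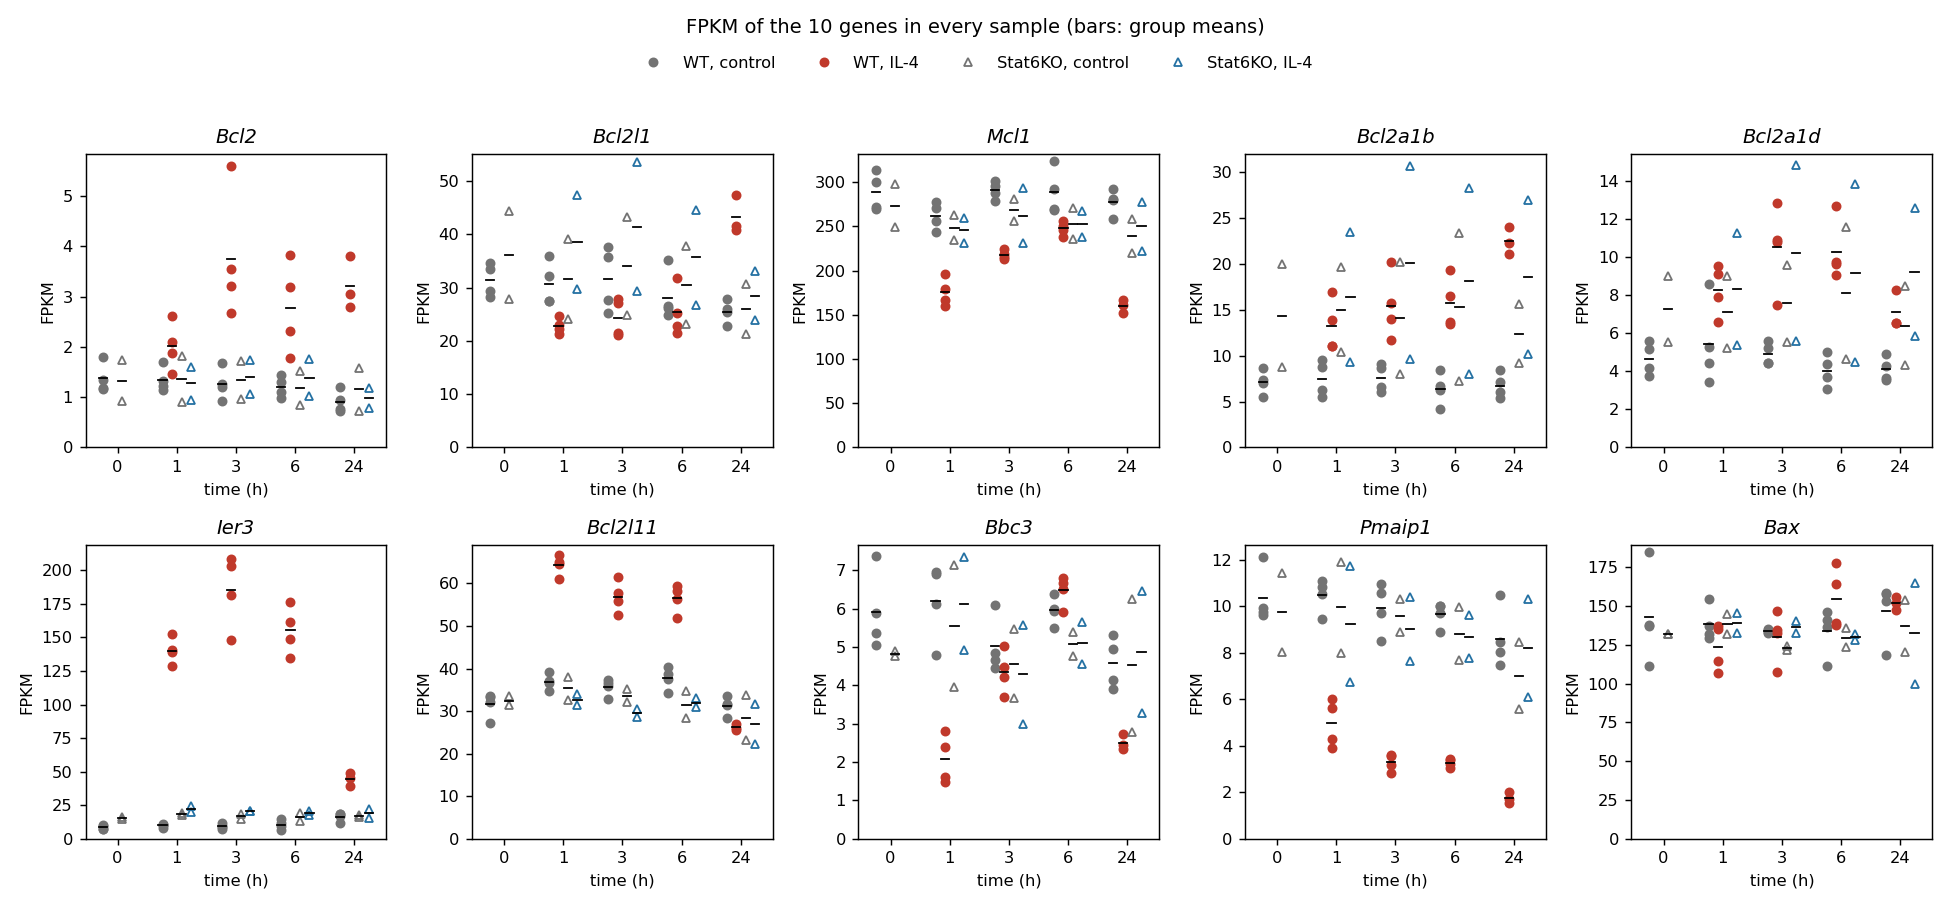
FPKM (y axes) of each of the 10 genes in every sample against time in h (x axes), with filled circles for WT, open triangles for Stat6-/-, grey for controls, red or blue for IL-4, and short bars for group means. The Ier3 samples of WT with IL-4 lie far above all others up to 6 h, those of Pmaip1 lie below the WT controls of the same time from 1 h on, and those of Bax overlap with their controls at each time.

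Ier3 had the largest response of the 10 genes at 1, 3 and 6 h. It is a short gene on chromosome 17 (chr17:35821713-35822911, plus strand, mm10). Its WT controls at 1 h stood at 10.6, 7.82, 10.4 and 11.4 FPKM and the WT samples with IL-4 at 139.3, 128.6, 152.6 and 140.4. At 3 h the controls stood at 8.62, 6.93, 9.70 and 11.8 FPKM and the IL-4 samples at 203.3, 148.2, 181.5 and 208.7. The lowest IL-4 sample was thus more than 10 times the highest control at both times. Ratios of the group means were 14.0 at 1 h, 20.0 at 3 h and 14.7 at 6 h, and the log2 fold changes were 3.68 ± 0.16 (SE), 4.19 ± 0.16 and 3.79 ± 0.16 (limma, adjusted p = 2.97e-20, 1.47e-22 and 2.23e-21).

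By 24 h the Ier3 response was smaller, and the groups still did not overlap. The IL-4 samples stood at 39.0, 45.0 and 48.9 FPKM and the controls at 16.6, 12.0, 18.3 and 18.3 FPKM, which gave a log2 fold change of 1.40 ± 0.18 (limma, adjusted p = 2.28e-08). Ier3 was also the only one of the 10 genes that passed the test in WT controls against 0 h without a replicate block. It rose by 0.84 ± 0.16 on the log2 scale from 0 to 24 h (limma, adjusted p = 3.59e-04). In Stat6-/- the 8 IL-4 samples of Ier3 ranged from 15.5 to 24.3 FPKM and the 10 controls from 13.5 to 19.4 over all times. These pooled ranges overlapped. Against time-matched controls, both IL-4 samples lay above both controls at 1 and 3 h, and the groups overlapped at 6 and 24 h. The IL-4 means were 1.19, 1.23, 1.19 and 1.10 times the control means at 1, 3, 6 and 24 h, and none of these changes passed the test. The difference between the genotypes' responses passed at each time, with 3.45 ± 0.28, 3.90 ± 0.28, 3.54 ± 0.28 and 1.29 ± 0.29 (log2; limma, adjusted p = 1.63e-11, 1.72e-13, 1.68e-12 and 9.17e-04).

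Pmaip1, which encodes the BH3-only protein NOXA, fell at every time. WT controls at 24 h stood at 8.03, 10.5, 8.45 and 7.48 FPKM and the IL-4 samples at 2.01, 1.69 and 1.55. At 3 h the controls ranged from 8.52 to 11.0 FPKM and the IL-4 samples from 2.83 to 3.60. No IL-4 sample overlapped with a control at any of the 4 times, and the IL-4 means were 47.3%, 33.1%, 33.9% and 20.3% of the control means at 1, 3, 6 and 24 h. The log2 fold changes were -0.96 ± 0.15, -1.35 ± 0.15, -1.32 ± 0.15 and -1.80 ± 0.16 (limma, adjusted p = 4.75e-06, 1.15e-09, 1.63e-09 and 5.09e-12).

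In Stat6-/- Pmaip1 stood at 6.09 and 10.3 FPKM with 24 h of IL-4 and at 5.60 and 8.44 in the controls. The order of the 2 replicates was the same in both groups and the groups overlapped. The responses of the genotypes differed by -1.26 ± 0.26 at 3 h, -1.30 ± 0.26 at 6 h and -1.98 ± 0.26 at 24 h (log2; limma, adjusted p = 4.20e-04, 2.23e-04 and 3.03e-07). At 1 h the difference was -0.84 ± 0.26 with an adjusted p of 0.0604, and it passed in 6 of 23 alternatives. These were without WT IL-4 replicate 1 (adjusted p = 0.0374), without Stat6-/- IL-4 replicate 1 (0.00615), without Stat6-/- control replicate 2 (0.0210), with Stat6-/- replicate 2 only (0.0110), under quantile normalization (0.0473) and with a replicate block (1.57e-05).

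Bbc3, which encodes PUMA, fell at 1 h, was near its control level at 3 and 6 h and fell again at 24 h. Its 1 h controls stood at 6.91, 4.80, 6.96 and 6.13 FPKM and its IL-4 samples at 2.39, 1.62, 2.82 and 1.49, which did not overlap. At 6 h the IL-4 samples (5.92 to 6.81 FPKM) overlapped with the controls (5.51 to 6.40). At 24 h the groups were apart again, with 5.31, 4.96, 3.90 and 4.14 FPKM in the controls and 2.33, 2.46 and 2.74 with IL-4. On the log2 scale the changes were -1.24 ± 0.18, -0.17 ± 0.18, 0.11 ± 0.18 and -0.66 ± 0.19 at 1, 3, 6 and 24 h (limma, adjusted p = 1.53e-06, 0.566, 0.675 and 0.00402). With Tukey adjustment the 24 h call was lost (adjusted p = 0.132).

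The Stat6-/- samples of Bbc3 at 1 h stood at 3.97 and 7.14 FPKM without and at 4.91 and 7.34 FPKM with IL-4. The genotypes' responses differed by -1.38 ± 0.31 at 1 h (log2; limma, adjusted p = 0.00388). Without Stat6-/- IL-4 replicate 2 this was -1.13 with an adjusted p of 0.0927, without Stat6-/- control replicate 1 it was -1.02 with 0.153, and with only the groups compared in the fit the adjusted p was 0.0758. At 24 h the difference of -0.77 ± 0.32 had an adjusted p of 0.0686, and it passed without Stat6-/- IL-4 replicate 1 (-1.17, adjusted p = 0.00803), without Stat6-/- control replicate 2 (-1.24, 0.00387), with Stat6-/- replicate 1 only (-0.83, 0.0224) and with a replicate block (-0.73, 0.00460).

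Bcl2l11 (BIM), the third BH3-only gene, moved the other way from Pmaip1 and Bbc3 at the early times. At 1 h its controls stood at 36.6, 34.7, 39.2 and 37.1 FPKM and its IL-4 samples at 64.6, 61.0, 66.8 and 64.9. IL-4 samples lay above all controls at 1, 3 and 6 h and below all controls at 24 h, when they stood at 27.1, 26.0 and 25.5 FPKM against 31.8, 33.5, 31.4 and 28.5. Bcl2l11 rose by 0.79 ± 0.09, 0.66 ± 0.09 and 0.57 ± 0.09 on the log2 scale at 1, 3 and 6 h (limma, adjusted p = 7.14e-09, 1.36e-07 and 1.62e-06). At 24 h it was lower by -0.25 ± 0.10 (limma, adjusted p = 0.0294), a call that was lost without WT IL-4 replicate 3 (adjusted p = 0.0695) or 4 (0.0854) without WT control replicate 1 (0.0550) or 2 (0.0832), under median-ratio scaling (0.0752) and with Tukey adjustment (0.511).

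In Stat6-/- Bcl2l11 stood at 32.5 and 38.1 FPKM in 1 h controls and at 31.3 and 34.0 with IL-4. At 3 h both Stat6-/- IL-4 samples (28.6 to 30.4 FPKM) lay below both controls (32.1 to 35.2), a change that did not pass the test. The genotypes' responses differed by 0.89 ± 0.15 at 1 h, 0.84 ± 0.15 at 3 h and 0.54 ± 0.15 at 6 h (log2; limma, adjusted p = 1.08e-04, 9.89e-05 and 0.0106). The 6 h call was lost without Stat6-/- IL-4 replicate 1 (0.50, adjusted p = 0.0605) and without Stat6-/- control replicate 2 (0.40, adjusted p = 0.130). At 24 h the difference was -0.17 ± 0.16 with an adjusted p of 0.440. It passed at -0.42 (adjusted p = 0.0436) without Stat6-/- IL-4 replicate 1 and at -0.44 (0.0311) without Stat6-/- control replicate 2, and it turned to 0.07 without Stat6-/- IL-4 replicate 2 and to 0.09 without Stat6-/- control replicate 1.

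Bax, the effector, did not pass the test in any comparison. Its WT controls ranged from 111.3 to 185.1 FPKM with a median of 137.0 (20 samples) and its WT IL-4 samples from 107.1 to 177.8 with a median of 137.8 (15 samples). The 2 ranges nearly coincided. In WT its log2 fold changes were -0.17, -0.05, 0.21 and 0.05 at 1, 3, 6 and 24 h, with 95% intervals from -0.42 to 0.09, -0.31 to 0.21, -0.05 to 0.47 and -0.22 to 0.33. Of the Bax transcript's 50-base stretches, 8.51% also occur in the overlapping gene Gm45808.

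Among the survival genes, Mcl1 fell at all 4 times. Its 1 h controls stood at 270.9, 243.1, 277.1 and 255.7 FPKM and its IL-4 samples at 195.9, 178.7, 166.7 and 159.9. The controls at 24 h stood at 280.7, 279.6, 291.8 and 258.0 FPKM and the IL-4 samples at 151.4, 166.9 and 161.6. IL-4 samples lay below all controls at each time, and the means with IL-4 were 67.0%, 74.9%, 85.9% and 57.6% of the control means. Its log2 fold changes were -0.58 ± 0.08, -0.42 ± 0.08, -0.22 ± 0.08 and -0.79 ± 0.09 (limma, adjusted p = 8.80e-07, 9.10e-05, 0.0313 and 1.32e-09). The 6 h call was lost without WT IL-4 replicate 2 (adjusted p = 0.0580) or 4 (0.0786) without WT control replicate 1 (-0.16, adjusted p = 0.142) or 3 (0.0635) and with Tukey adjustment (0.395).

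Mcl1 in Stat6-/- stood at 220.0 and 258.0 FPKM in 24 h controls and at 222.5 and 277.2 FPKM with IL-4, so the groups overlapped. The Mcl1 responses of the genotypes differed by -0.56 ± 0.14 at 1 h and -0.85 ± 0.14 at 24 h (log2; limma, adjusted p = 0.0136 and 2.41e-05). The 1 h call was lost without Stat6-/- IL-4 replicate 2 (-0.48, adjusted p = 0.157), without Stat6-/- control replicate 1 (-0.48, adjusted p = 0.167) and with only the groups compared in the fit (adjusted p = 0.0907). At 3 h the difference was -0.37 ± 0.14 with an adjusted p of 0.0878, and it passed without Stat6-/- IL-4 replicate 1 (-0.55, adjusted p = 0.0161), with Stat6-/- replicate 2 only (-0.48, adjusted p = 0.0267) and with a replicate block (-0.37, adjusted p = 0.00200).

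Bcl2, whose protein gave the family its name, rose from a low level. At 24 h its controls stood at 0.760, 0.942, 0.721 and 1.21 FPKM and its IL-4 samples at 3.82, 3.05 and 2.79. At 3 h the controls stood at 1.27, 1.68, 1.20 and 0.934 FPKM and the IL-4 samples at 3.56, 5.60, 3.20 and 2.68. No IL-4 sample overlapped with a control at 3, 6 or 24 h, while at 1 h the groups overlapped. Ratios of the means were 1.50, 2.96, 2.30 and 3.54 at 1, 3, 6 and 24 h. The log2 fold changes were 0.36 ± 0.18, 1.04 ± 0.18, 0.75 ± 0.18 and 1.14 ± 0.19 (limma, adjusted p = 0.266, 1.21e-05, 8.00e-04 and 5.14e-06), and since 1 FPKM is added before the logarithm they understate the change of a gene at this level. Of the exon bases of Bcl2, 6.09% lie opposite the antisense gene D630008O14Rik, and the library kit does not mark the strand, so reads of the 2 genes cannot be told apart there.

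The Stat6-/- samples of Bcl2 stood at 1.57 and 0.735 FPKM in 24 h controls and at 1.19 and 0.793 FPKM with IL-4. Its responses in the genotypes differed by 1.00 ± 0.31 at 3 h and 1.24 ± 0.32 at 24 h (log2; limma, adjusted p = 0.0272 and 0.00326). The 24 h call was lost without Stat6-/- control replicate 1 (0.95, adjusted p = 0.0714). The 3 h call was lost in 9 of 23 alternatives, among them with Stat6-/- replicate 1 only (adjusted p = 0.0750) or 2 only (0.0529), without WT IL-4 replicate 2 (0.0723), without WT control replicate 4 (0.0552), without Stat6-/- IL-4 replicate 1 (0.175) and without Stat6-/- control replicate 2 (0.210).

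Bcl2l1 (BCL-XL) rose at 24 h. Its 24 h controls stood at 26.0, 22.9, 25.4 and 27.8 FPKM and its IL-4 samples at 47.4, 41.6 and 40.9, which lay above all of them. At 1 h the order was the reverse, with 32.2, 35.9, 27.5 and 27.4 FPKM in the controls and 23.0, 24.7, 22.2 and 21.3 with IL-4, but the 1 h difference did not pass the test. The log2 fold changes were -0.41 ± 0.20, -0.35 ± 0.20, -0.15 ± 0.20 and 0.74 ± 0.22 at 1, 3, 6 and 24 h (limma, adjusted p = 0.244, 0.210, 0.593 and 0.00380). With only the 2 groups compared in the fit the 1 h change passed (adjusted p = 0.0216), and with Tukey adjustment the 24 h call was lost (adjusted p = 0.128). Stat6-/- samples at 24 h stood at 30.6 and 21.3 FPKM in controls and 33.1 and 23.9 FPKM with IL-4, and the difference between the genotypes of 0.61 ± 0.35 did not pass (limma, adjusted p = 0.206). The IL-4 means in Stat6-/- were 1.22, 1.22, 1.17 and 1.10 times the control means at 1, 3, 6 and 24 h, and the groups overlapped each time. Differences between the genotypes' responses at 1, 3 and 6 h were -0.69, -0.62 and -0.36 and did not pass (limma, adjusted p = 0.510, 0.335 and 0.574).

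**Figure D3:**
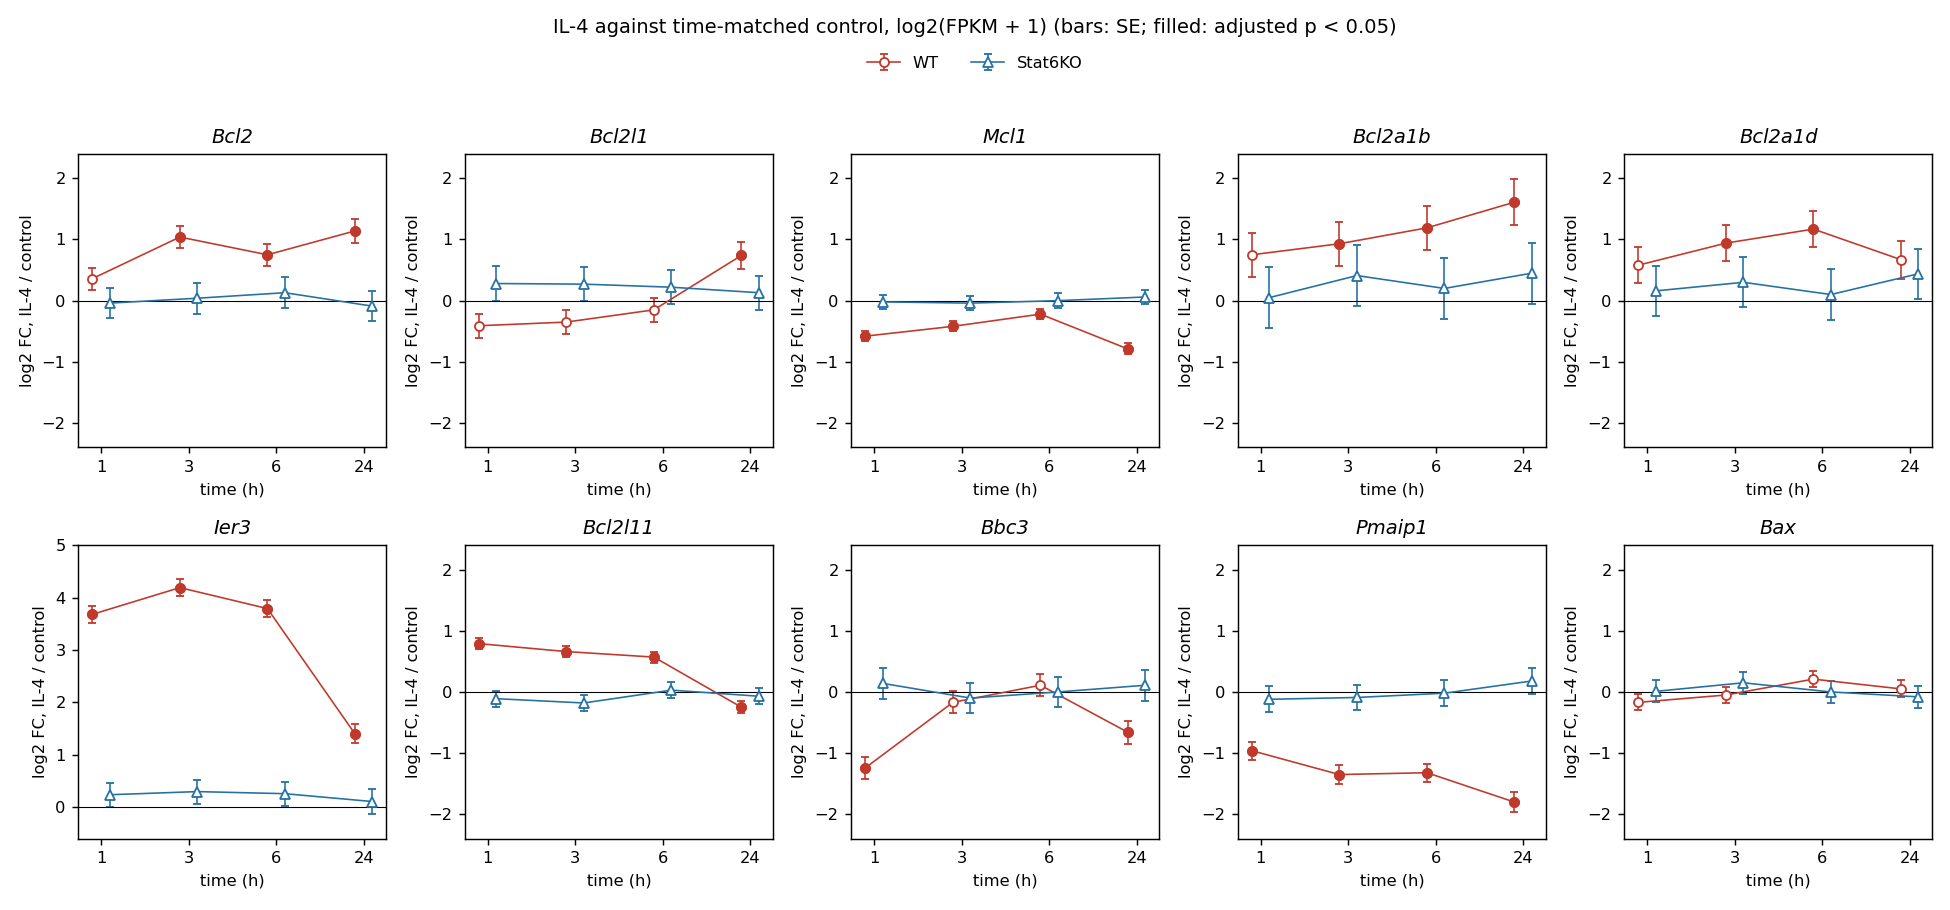
Log2 fold change of IL-4 over time-matched control on the log2(FPKM + 1) scale (y axes) at 1, 3, 6 and 24 h (x axes) for each of the 10 genes, with circles for WT, triangles for Stat6-/-, bars for the SE and filled symbols for an adjusted p under 0.05. WT symbols leave 0 in both directions, whereas all Stat6-/- symbols are open and lie between -0.18 and 0.45.

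The A1 genes Bcl2a1b and Bcl2a1d, near-copies on chromosome 9 (chr9:89199273-89207838, plus strand, and chr9:88723288-88731850, minus strand, mm10), encode survival proteins that are known as NF-kB targets and are abundant in neutrophils. Of the 50-base stretches of Bcl2a1b transcripts, 79.2% also occur in another gene, 57.6% in Bcl2a1d and 46.0% in Gm29094, a protein-coding gene on the same strand that overlaps 49.1% of the exon bases of Bcl2a1b, and of those of Bcl2a1d 79.5% occur in another gene. The split of reads between the copies is therefore uncertain. How alike they are can be seen in the 250 bases before their start sites (RefSeq, GRCm38.p6), shown because both genes rose with IL-4 at 3 and 6 h. Bcl2a1b is chr9:89199023-89199272 on the plus strand and Bcl2a1d is chr9:88731851-88732100 on the minus strand, each written in the direction of its gene, and capitals mark the bases of the shared stretch that differ or are missing in the other copy.
Bcl2a1b: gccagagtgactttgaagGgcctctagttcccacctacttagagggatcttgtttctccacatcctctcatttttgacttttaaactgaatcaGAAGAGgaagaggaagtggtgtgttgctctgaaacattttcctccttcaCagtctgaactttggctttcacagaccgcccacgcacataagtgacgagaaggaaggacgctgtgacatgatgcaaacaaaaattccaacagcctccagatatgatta
Bcl2a1d: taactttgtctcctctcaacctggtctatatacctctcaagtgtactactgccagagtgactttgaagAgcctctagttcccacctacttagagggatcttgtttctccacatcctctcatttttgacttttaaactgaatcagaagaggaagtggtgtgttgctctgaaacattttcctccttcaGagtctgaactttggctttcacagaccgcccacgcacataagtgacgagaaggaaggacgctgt
In the shared stretch 198 of 206 aligned positions (96.1%) were identical, 2 held different bases and 6 were missing from Bcl2a1d, and the annotated start sites were offset against each other.

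Both A1 genes rose with IL-4 in WT. At 6 h the Bcl2a1b controls stood at 8.48, 6.72, 6.26 and 4.23 FPKM and the IL-4 samples at 19.4, 16.5, 13.6 and 13.4. The Bcl2a1d controls stood at 4.40, 5.04, 3.71 and 3.05 FPKM and the IL-4 samples at 12.7, 9.67, 9.06 and 9.74. Neither gene overlapped between the groups at 3, 6 or 24 h. At 1 h all IL-4 samples of Bcl2a1b lay above all controls, while those of Bcl2a1d overlapped. For Bcl2a1b the log2 fold changes were 0.75 ± 0.36, 0.93 ± 0.36, 1.19 ± 0.36 and 1.61 ± 0.38 at 1, 3, 6 and 24 h (limma, adjusted p = 0.230, 0.0463, 0.00643 and 5.86e-04). Those of Bcl2a1d were 0.58 ± 0.29, 0.94 ± 0.29, 1.17 ± 0.29 and 0.67 ± 0.31 (limma, adjusted p = 0.253, 0.0105, 0.00104 and 0.0633). The 3 h call of Bcl2a1b was lost in 11 of 18 alternatives. It was lost with any of the WT control replicates 1 to 4 left out (adjusted p = 0.0505 to 0.119) and with WT IL-4 replicate 1, 2 or 4 left out (0.133, 0.0846 and 0.0669). With all samples kept, it was lost without the filter (adjusted p = 0.0753), under quantile normalization (0.0568), under median-ratio scaling (0.0602) and with Tukey adjustment (0.534). Tukey adjustment also ended the calls of Bcl2a1b at 6 h (adjusted p = 0.162) and of Bcl2a1d at 3 h (0.182). Bcl2a1d at 24 h passed under quantile normalization (0.75, adjusted p = 0.0445), with only the groups compared (0.67, 0.00148) and with a replicate block (0.76, 6.59e-06). At 1 h Bcl2a1b passed with only the groups compared (0.75; limma, adjusted p = 0.0300) and with a replicate block (0.75; 1.42e-05). Bcl2a1d at 1 h passed with a replicate block (0.58; limma, adjusted p = 4.59e-04).

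At 24 h the ratio of the A1 copies in WT with IL-4 differed from that in the other samples. Bcl2a1b stood at 8.39, 5.43, 6.09 and 7.10 FPKM in 24 h controls and at 21.0, 24.0 and 22.3 with IL-4, and Bcl2a1d at 4.92, 3.57, 4.30 and 3.64 and at 8.28, 6.58 and 6.54. The ratio of Bcl2a1b to Bcl2a1d was 2.54, 3.66 and 3.41 in the WT samples with 24 h of IL-4. In the other 32 WT samples it ran from 1.11 to 1.95, and in the 18 Stat6-/- samples from 1.44 to 2.21. The ratio was thus higher in the 3 samples with 24 h of IL-4 than in any other sample, and the sharing of reads between the copies means that this shows an unequal change in the assigned reads. The sum of Bcl2a1a, Bcl2a1b and Bcl2a1d, which does not depend on the split among these 3 copies but leaves out Gm29094, stood at 14.9, 9.88, 11.3 and 11.7 FPKM in 24 h controls and at 32.0, 32.9 and 30.8 with IL-4, and IL-4 and control samples did not overlap at 3, 6 or 24 h. The sum of the neutrophil markers in WT at 24 h was 446.1 to 620.0 FPKM in the controls and 221.0 to 321.8 with IL-4. S100a9 and S100a8 weigh most in this sum, with medians of 214.8 and 189.9 FPKM over all samples. Whether neutrophil content bears on the A1 values was not tested.

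**Figure D4:**
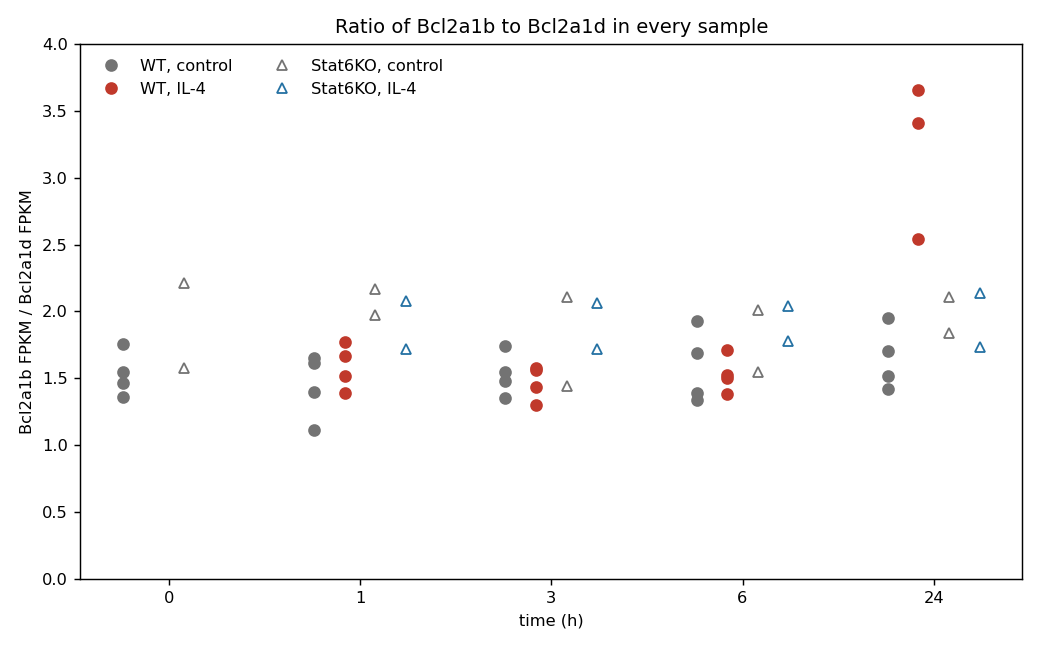
Ratio of the FPKM of Bcl2a1b to that of Bcl2a1d (y axis) in every sample against time in h (x axis), with filled circles for WT, open triangles for Stat6-/-, grey for controls and red or blue for IL-4. The 3 WT samples with 24 h of IL-4 lie at 2.54 to 3.66, above all other samples.

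In Stat6-/- the replicates of the A1 genes lay far apart with and without IL-4. Bcl2a1b at 24 h stood at 9.18 and 15.6 FPKM in the controls and at 10.2 and 27.0 with IL-4. Without a replicate block, none of the differences between the genotypes' responses passed for either gene with both replicates, the nearest being 1.06 ± 0.50 for Bcl2a1d at 6 h (limma, adjusted p = 0.153) and 1.16 ± 0.63 for Bcl2a1b at 24 h (limma, adjusted p = 0.174). With Stat6-/- replicate 1 only, both passed, at 1.20 (adjusted p = 0.0296) for Bcl2a1d at 6 h and 1.47 (adjusted p = 0.00849) for Bcl2a1b at 24 h. The Bcl2a1d difference at 6 h also passed without Stat6-/- IL-4 replicate 2 (1.78, adjusted p = 0.0183) and without Stat6-/- control replicate 1 (1.65, adjusted p = 0.0401). With a replicate block and both replicates, the difference passed for Bcl2a1b at 1, 6 and 24 h (0.70, 0.99 and 1.27; adjusted p = 0.0375, 4.37e-04 and 1.71e-05) and for Bcl2a1d at 3 and 6 h (0.64 and 1.06; adjusted p = 0.0244 and 1.39e-04).

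Levels without IL-4 were compared between the genotypes as the mean of the 5 control times, and 4 of the 10 genes passed, where 21.4% of all loci did. None of the 4 reached 2-fold (0.287% of all loci, or 32, did, and 130 with a pseudocount of 0.1). Ier3 was higher in Stat6-/- by 0.62 ± 0.09 (log2; limma, adjusted p = 2.79e-06). It stood at 13.5 to 19.4 FPKM in 10 Stat6-/- controls and at 6.86 to 18.3 FPKM in 20 WT controls, which overlapped. By time, all Stat6-/- controls of Ier3 lay above all WT controls at 0, 1 and 3 h, and the genotypes overlapped at 6 and 24 h. Stat6-/- and WT means were 15.2 and 8.67 FPKM at 0 h, 16.2 and 10.6 at 6 h, and 17.2 and 16.3 at 24 h. The WT controls of Ier3 had risen by 24 h, as given above. The genotypes were not tested at single times. Bcl2a1b was higher by 0.83 ± 0.20 and Bcl2a1d by 0.53 ± 0.16, and Mcl1 was lower by -0.14 ± 0.04 (log2; limma, adjusted p = 0.00185, 0.0137 and 0.0248). The fit took the 10 Stat6-/- controls as separate samples, and no replicate block was fitted for this comparison. Over all loci, deviations of replicate 1 from the group means correlated at 0.81 on average between the Stat6-/- groups of 0 to 6 h (0.74 to 0.88). If samples of 1 number are not independent, the SE and p-values of this comparison are too small, also those over all loci.

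The calls for Bcl2a1b and Bcl2a1d were lost without Stat6-/- replicate 2 and that for Mcl1 without replicate 1. The Mcl1 call was also lost under median-ratio scaling with all samples kept (-0.12, adjusted p = 0.0954). With Stat6-/- replicate 1 only, Bcl2a1b was higher by 0.28 (adjusted p = 0.112) and Bcl2a1d by 0.13 (adjusted p = 0.480), and Bcl2a1d also missed the threshold when any 1 of the 5 control samples of replicate 2 was left out (adjusted p = 0.0521 to 0.0749). With replicate 2 only, Mcl1 was lower by -0.04 (adjusted p = 0.533), and it missed the threshold when any 1 of the 5 control samples of replicate 1 was left out (adjusted p = 0.0591 to 0.0861). Other genes passed with 1 replicate alone: with replicate 1 Bcl2l11 (-0.23, adjusted p = 2.95e-04), Bbc3 (-0.39, 8.32e-04) and Pmaip1 (-0.33, 7.28e-04), with replicate 2 Bcl2l1 (0.30, 0.00767), and Bcl2l11 also without the 24 h control of replicate 2 (-0.16, 0.0126). Neutrophil markers were higher in Stat6-/- than in WT controls (583.6 to 1072 against 307.6 to 620.0 FPKM), and within Stat6-/- their sum was lower in replicate 2, the replicate with more Bcl2a1b, in 9 of 9 groups. Their part in these differences was not tested.

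Time in culture alone was read from the controls of each genotype. In WT controls against 0 h, none of the 10 passed at 1, 3 or 6 h (223 of all loci passed at 1 h, 0.144% at 3 h and 0.135% at 6 h), and Ier3 passed at 24 h (17.2%). By limma without adjustment, 1, 0 and 1 of the genes had a p under 0.05 at 1, 3 and 6 h, as did 1306, 722 and 903 of all loci. With a replicate block, Bbc3 (-0.31; limma, adjusted p = 0.0367) and Pmaip1 (-0.24; 0.0113) also passed in WT at 24 h. Over all loci, 4134 in place of 1922 passed with the block. In Stat6-/- controls none passed at any of the 4 times (0.0807%, 0%, 0% and 0.718% of all loci did). There 0, 0, 0 and 1 genes had an unadjusted p under 0.05 by limma, as did 494, 434, 267 and 1643 of all loci.

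The promoter windows of 9 of the 10 genes were searched in RefSeq (250 bases before to 50 after each annotated start, 14 windows). The motifs were TTC and GAA with any 4 bases between them (the spacing that STAT6 prefers), TTC and GAA with any 3 between them (the spacing of other STATs), GGGA and TTTCC with any 1 between them (a form of the NF-kB site) and TATAAA, each on both strands. They occur in 6.95%, 8.30%, 0.411% and 13.6% of all 32851 mouse windows. Only 1 of the 14 windows held any of them: a downstream start of Bcl2l1 has the motif with 4 bases between TTC and GAA across its start site. The sequence is given as the only match, chr2:152828480-152828739 on the minus strand (GRCm38.p6), in the direction of the gene, with the motif in capitals.
Bcl2l1: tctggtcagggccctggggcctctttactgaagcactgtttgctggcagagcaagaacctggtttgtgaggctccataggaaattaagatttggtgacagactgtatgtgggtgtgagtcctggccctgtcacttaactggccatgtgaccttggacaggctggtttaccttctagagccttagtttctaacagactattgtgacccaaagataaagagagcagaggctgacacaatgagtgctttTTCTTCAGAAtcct
A match describes the letters, and the windows of Ier3, Bcl2, Bcl2l11, Mcl1, Bbc3, Bax and the A1 genes hold none of these motifs. The windows differed in base composition, from 44.3% G and C in Bcl2a1d to 78.0% in 1 window of Bbc3, and from 1 CpG in this Bcl2l1 window to 44 in Bcl2.

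The wider pathway was read from 7 lists with 64 genes, of which 55 passed the filter on low values. In WT, 7 of the 55 rose and 4 fell at 1 h, 10 rose and 12 fell at 3 h, 14 rose and 11 fell at 6 h, and 11 rose and 24 fell at 24 h, and in Stat6-/- none passed at any time. The shares of all loci that rose were 5.67%, 16.4%, 22.0% and 23.4% at the 4 times and the shares that fell 3.72%, 12.5%, 19.2% and 31.6%. Of the inhibitor of apoptosis proteins 7 of 8 fell at 24 h and none rose, with a median of -0.55 against -0.07 for all loci. In the other lists at 24 h, 1 rose and 5 fell of 9 death receptor genes, 4 rose and 4 fell of 10 apoptosome and caspase genes, 2 rose and 2 fell of 7 further BH3-only and effector relatives, and 2 rose and 3 fell of 10 kinase, FOXO and ubiquitin enzyme genes. Of 9 p53 pathway genes 1 rose and 2 fell, and of the 2 further survival relatives 1 rose and 1 fell.

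Of the genes that act next to the 10, Bmf, a further BH3-only gene, fell at each time, from 11.7 ± 0.721 FPKM (n = 4) to 2.38 ± 0.483 (n = 3) at 24 h (-1.92 ± 0.14; limma, adjusted p = 2.93e-14). Casp6, an executioner caspase, rose from 17.0 ± 3.04 to 115.0 ± 7.59 FPKM (n = 4 each) at 6 h (2.70 ± 0.14; limma, adjusted p = 4.24e-19). Pim3, a kinase whose family phosphorylates the BH3-only protein BAD, rose by 2.03 ± 0.21 at 6 h, and Cdkn1a, the cell cycle inhibitor p21, by 1.67 ± 0.14 (limma, adjusted p = 1.80e-10 and 1.13e-12). These 4 genes changed in WT past 2-fold, and their responses differed between the genotypes at 6 h by -1.15, 2.83, 2.07 and 1.57 on the log2 scale (limma, adjusted p = 2.09e-04, 5.90e-12, 3.43e-05 and 5.79e-06).

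At 24 h the inhibitors of apoptosis Birc3 and Birc5 fell by 1.24 and 1.51 on the log2 scale, the death receptor Fas fell by 1.34, the p53 target Trp53inp1 fell by 1.08 and the necroptosis kinase Ripk3 rose by 1.41 (limma, adjusted p = 2.32e-09, 7.28e-04, 1.73e-05, 4.59e-06 and 6.53e-12). Birc5 encodes survivin, which is made in dividing cells, and the sum of Mki67 and Top2a was 17.8 to 37.6 FPKM in 24 h WT controls and 8.48 to 15.3 with IL-4. Whether the share of dividing cells bears on the Birc5 change was not tested. The genotypes' responses differed for each of these 5 genes at 24 h, the weakest being Birc5 (-1.61 ± 0.61; limma, adjusted p = 0.0444). Bcl2a1a, a further A1 copy, rose by 1.03 ± 0.24 at 6 h (limma, adjusted p = 5.96e-04), and its response did not pass the test between the genotypes.

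**Figure D5:**
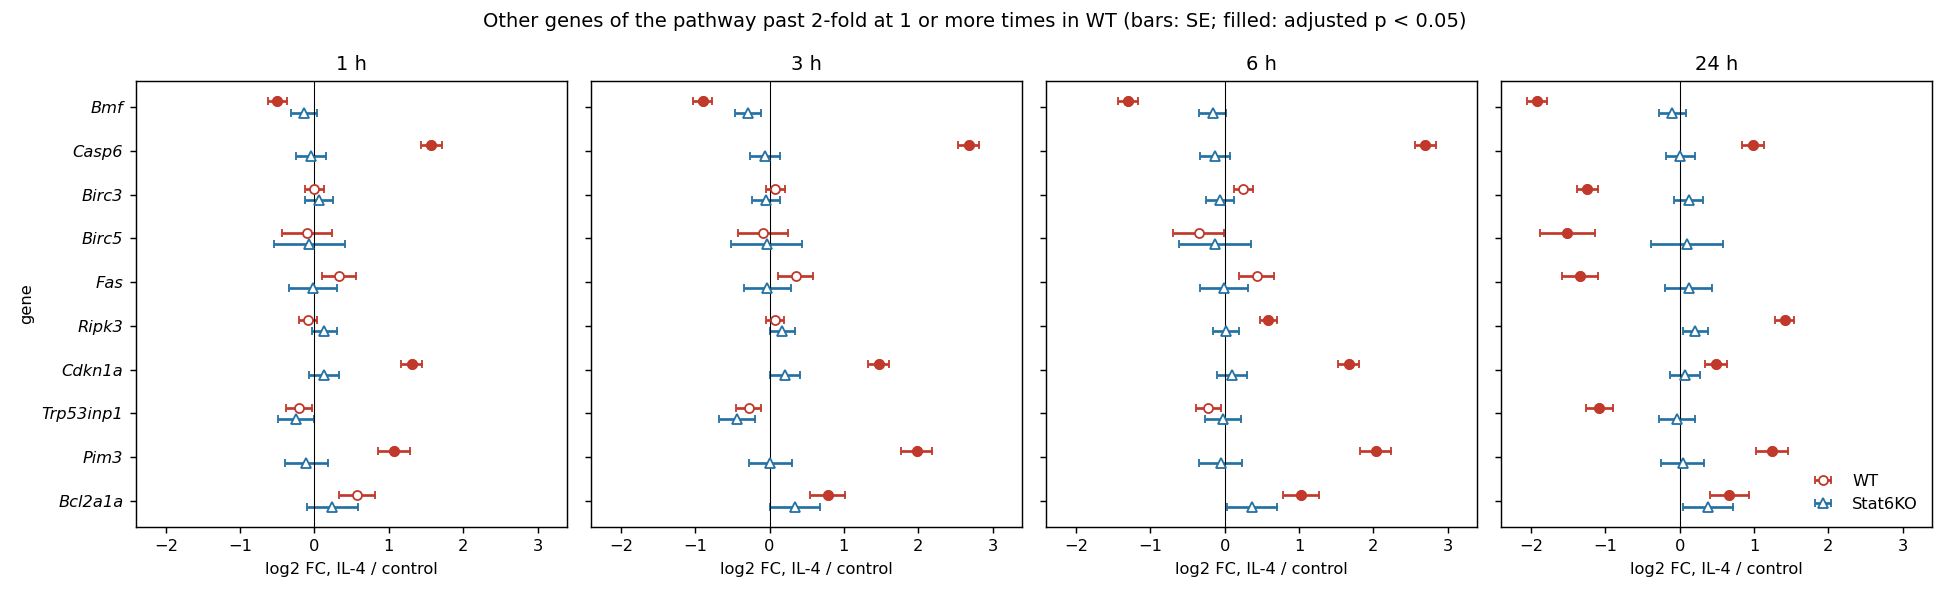
Log2 fold change of IL-4 over control on the log2(FPKM + 1) scale (x axes) at 1, 3, 6 and 24 h (panels) for 10 further genes of the pathway (rows) that passed 2-fold in WT at 1 or more times, with circles for WT, triangles for Stat6-/-, bars for the SE and filled symbols for an adjusted p under 0.05. In WT Casp6, Cdkn1a and Pim3 lie to the right from 1 h on and Bmf to the left, whereas the changes of Birc3, Birc5, Fas and Trp53inp1 appear at 24 h, and all Stat6-/- symbols are open.

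Genes whose pattern over the 18 group means was most like that of a member were listed by Pearson's r of log2(FPKM + 1), as a description. For Ier3 they were Cd274 (r = 0.98), Olr1 and Nfil3 (0.97 each). For Pmaip1 they were Tlr2 and Lyl1 (0.97 each) and Coro1a (0.96), and for Bcl2 they included Bcar3 and Csrp2bp (0.97 each). Bbc3, whose dip at 1 h was followed by a return, had less close neighbours in N4bp3 (0.92), H2-K2 (0.90) and Arrdc2 (0.85). The nearest of Bcl2a1b were Bcl2a1a (0.91), Bcl2a1d (0.87) and Ccl8 (0.85), and those of Bcl2a1d were Bcl2a1a (0.96), Cysltr2 (0.89) and Bcl2a1b (0.87), with reads shared among the copies. The 18 means share the sequencing libraries of their groups and the scaling of FPKM.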

How the data were processed

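RNA was measured by poly-A RNA sequencing (TruSeq kit, 1 µg of total RNA) in 53 BMDM samples, grouped by genotype, treatment and time as their labels state. Per the labels' processing notes, the authors used TopHat2 2.0.7 and Cufflinks 2.0.2 with mm10, and they deposited 1 table of FPKM per sample. The gene annotation was not given in the sources used here. FPKM are not counts, and because each library is scaled to its own total, abundant genes that change move the values of all others. FPKM below 1e-05 (5053 values) were set to 0. Tables were joined by locus and name, and 740 loci sharing a symbol were kept apart.

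Values were analysed as log2(FPKM + 1) in limma 3.58.1 (R 4.3.3) with 1 mean per group over all 53 samples (35 residual degrees of freedom), moderated variances with a trend, two-sided tests and Benjamini-Hochberg adjustment over 11146 loci. A call needed an adjusted p under 0.05, and a 2-fold call also an absolute log2 fold change of 1 or more. The fit was also run on simulated data with independent noise in each sample. That run could not show how the fit behaves where samples of 1 replicate number share deviations. Fold changes on this scale understate changes of low genes. The study describes the WT data as coming from individual animals. What the Stat6-/- replicates are, and whether a number marks the same animal across groups, was not given in the sources used here, so p-values measure the spread between these samples, which may be technical in part. Read depth is known here only relative to other samples, so no counting intervals were given.

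All 10 genes were named in every comparison. From the 7 pathway lists, genes past 2-fold in WT at any time were named (at most 20, and 10 qualified), and the 3 most similar loci were named for members past 2-fold, except 1 that is not reported here. Members, lists and tests were chosen with earlier results of these data known. Alternatives were pseudocounts of 0.1 and 0.5, no filter or a filter on the mean, quantile normalization, median-ratio scaling, a replicate block, no trend, only the groups compared, Tukey adjustment and leaving out each sample. Fits with 1 Stat6-/- replicate only were chosen after seeing the data. Promoters were taken from RefSeq (GRCm38.p6) and shared 50-base stretches from GENCODE transcripts of the same assembly. The promoter of Pmaip1 was not analysed here.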

Additional observations from a re-analysis of the deposited data

Results flagged for a closer look

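In 80 sets of 4 WT samples (10 genes in 8 groups), 3 sets held a sample far from the other 3, with a gap above the critical share of the range, and chance gives about 1 in 20, or 4.0 sets. Bcl2l1 stood at 35.1 FPKM in 6 h control replicate 2 and at 24.8 to 26.5 in the others. Pmaip1 stood at 12.1 FPKM in 0 h control replicate 2 and at 9.62 to 9.94 in the others. Bax stood at 118.5 FPKM in 24 h control replicate 2 and at 153.5 to 158.4 in the others, and without that sample the 24 h change of Bax in WT was -0.05.

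The response to IL-4 differed between WT and Stat6-/- by the test of the difference itself (limma, adjusted p under 0.05) in 15 of 40 tests of the 10 genes. On the log2 scale the differences were 3.45, 3.90, 3.54 and 1.29 for Ier3 at 1, 3, 6 and 24 h, and 0.89, 0.84 and 0.54 for Bcl2l11 at 1, 3 and 6 h. They were -1.26, -1.30 and -1.98 for Pmaip1 at 3, 6 and 24 h, 1.00 and 1.24 for Bcl2 at 3 and 24 h, -0.56 and -0.85 for Mcl1 at 1 and 24 h, and -1.38 for Bbc3 at 1 h.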

How the results depend on the processing

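Of 2200 values of single genes under other settings, 2063 kept their direction and their side of the threshold, 58 lost a call, 39 gained one and 40 changed sign. Ier3, Pmaip1 (WT response and the 3, 6 and 24 h differences between the genotypes) and the WT responses of Bcl2 at 3, 6 and 24 h are not among the changed ones.

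The counts of the 10 genes that passed moved by more than 1.5 times as follows. With a replicate block, 6 in place of 3 passed for the difference between the genotypes' responses at 6 h, 1 in place of 0 for WT controls at 6 h, 3 in place of 1 for WT controls at 24 h and 1 in place of 0 for Stat6-/- controls at 24 h. Calls over all 11146 loci also rose with the block in these 4 comparisons, to 3362 from 1837, to 581 from 15, to 4134 from 1922 and to 1873 from 80. For the settings that follow, counts over all loci are not given here. At 1 h, with only the groups compared, 2 in place of 4 passed for the difference. Tukey adjustment left 5 of 8 for IL-4 in WT at 24 h, without Bcl2l1, Bcl2l11 and Bbc3. With either Stat6-/- replicate only, 1 in place of 0 passed for Stat6-/- controls at 24 h. Leaving out 1 sample gave 2 to 5 genes in place of 4 for the difference at 1 h, the 2 being without Stat6-/- IL-4 replicate 2 or control replicate 1. The causes were not tested.

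Replicate numbers were not taken as pairs in the main fit, and the labels do not say whether a number marks 1 animal across groups. The deviations of WT samples with the same number correlated at 0.27 on average, from 0.03 to 0.56 (15 pairs). Those of WT samples with unlike numbers correlated at -0.09 on average, from -0.56 to 0.28 (45 pairs). Of the IL-4 samples, 12 of 15 in WT and 8 of 8 in Stat6-/- correlated best with the control of their own number. Each WT IL-4 sample had 4 controls to match. The deviations of Stat6-/- samples with the same number correlated at 0.79 to 0.90 (8 pairs), in groups of 2, where the deviations of the 2 samples mirror each other. If a number does mark 1 animal, the main fit leaves out a pairing that the replicate block takes in. The block added 14 calls among single genes and removed 0, and over all loci it gave 1908 calls in place of 1047 for IL-4 in WT at 1 h. With a pseudocount of 0.1, the loci past 2-fold were 931 in place of 617 and 1522 in place of 947 for IL-4 in WT at 6 and 24 h. At 3 h they were 649 in place of 433, and 5 of the 10 genes in place of 3 were past 2-fold.

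The following values changed sign. For Bax in WT the 24 h change was -0.01 under quantile normalization, and leaving out 1 sample gave -0.05 to 0.09 at 24 h and -0.11 to 0.04 at 3 h. In WT controls at 24 h, Bcl2l11 was 0.02 under quantile normalization and 0.03 under median-ratio scaling, and leaving out 1 sample gave -0.08 to 0.03 for Bcl2l11, -0.17 to 0.02 for Bcl2a1b and -0.06 to 0.19 for Bax. In controls of Stat6-/- against WT, Bcl2l11, Bbc3 and Pmaip1 were 0.02, 0.07 and 0.08 with Stat6-/- replicate 2 only, Bcl2 and Bcl2l1 were -0.12 and -0.16 with replicate 1 only, and leaving out 1 sample gave -0.04 to 0.08 for Bcl2 and -0.01 to 0.14 for Bcl2l1. Among the differences between the genotypes' responses, replicate 1 only gave 0.05 for Bbc3 at 3 h and -0.05 for Bax at 24 h. Leaving out 1 sample gave -0.43 to 0.29 for Bbc3 at 3 h, -0.03 to 0.23 for Bbc3 at 6 h, -0.05 to 0.89 for Bcl2a1d at 1 h (0.42 with all samples), -0.26 to 0.72 for Bcl2a1d at 24 h (0.23), -0.27 to 1.31 for Bcl2a1b at 3 h (0.52), -0.44 to 0.09 for Bcl2l11 at 24 h and -0.22 to 0.50 for Bax at 24 h.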
